A study of Homo sapiens with 17 samples.

Results

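The BCL2 family apoptosis genes described here are BCL2, BCL2L1, MCL1, BCL2A1, BAK1, BID, BIK, BCL2L11, BAD and BMF, 10 of the 26457 RefSeq genes with an mRNA-seq value in SW480 cells, and each was found by its symbol in the annotation of the deposited gene table. The SW480 line was derived from a human colon cancer and its p53 is mutant (mutp53). Both derivatives compared stably carried a doxycycline-inducible shRNA, came from another laboratory and were grown with puromycin and 1 μg/ml doxycycline. One shRNA was against LacZ (control cells) and the other against p53 (mutp53-depleted cells), so the effect of the depletion and any other difference between the 2 lines cannot be told apart. In what follows, depletion names this comparison of the 2 lines. RNA was collected without TNF-α (0 h, untreated) and 16 h into treatment with 12.5 ng/ml TNF-α, from 2 biological replicates (A and B) in each of the 4 groups.

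Proteins of the BCL2 family decide whether the outer membrane of the mitochondrion stays closed. The anti-apoptotic members (MCL1, BCL-xL from BCL2L1, BCL2 and A1 from BCL2A1) hold the effectors BAK and BAX in check, and the BH3-only members (BID, BIK, BIM from BCL2L11, BAD and BMF) bind the anti-apoptotic proteins or the effectors and so promote opening, after which cytochrome c is released and caspases are activated. In epithelial cells BID also links TNF receptors to this step, since caspase-8 cleaves the BID protein into its active form, and NF-κB, which TNF-α activates, is known to induce several survival genes.

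The values are reads on exons, scaled by the authors so that all libraries have 1 common total (normalized reads), and 1 normalized read was close to 1 read (between 0.67 and 1.51 normalized reads per read). The libraries held 6108488 to 13809578 reads on genes. NFKBIA and TNFAIP3, which NF-κB induces, rose 13.7-fold and 68.3-fold with TNF-α in control cells and 5.10-fold and 17.7-fold in mutp53-depleted cells. At 0 h TNFAIP3 rested on 12 and 8 reads in control cells and on 66 and 12 in mutp53-depleted cells. Of 9 markers of colon epithelium, 6 had at least 10 normalized reads in every library, whereas CDX1 was at 0 throughout. VIL1 fell from 545 and 480.2 normalized reads in the untreated control libraries to 8.71 and 12.3 in the mutp53-depleted ones. Between the same libraries EPCAM fell from 5976 and 5687 to 2404 and 2367, and both were called lower at 16 h too. With TNF-α, CDH1 was called lower in control cells (485 and 467 to 87 and 78) and in mutp53-depleted cells (275 and 265 to 58.7 and 61.7). CDX2 was called lower in control cells (981 and 965 to 462 and 467), and VIL1 in both lines. Of the 7 tested, 5 passed the test lower with TNF-α in each line, against 15.2% and 16.9% of all genes in control and mutp53-depleted cells. With depletion 5 were lower at 0 h and 5 at 16 h, against 25.2% and 26.5%. Passing higher were 1 with TNF-α in each line (11.1% and 9.8% of all genes). With depletion 1 was higher at 0 h (27.3%) and 2 at 16 h (24.9%). The summed epithelial markers ranged from 66178 to 70708 normalized reads in untreated control libraries, from 56292 to 56382 in treated control libraries, from 52455 to 52480 in untreated mutp53-depleted libraries and from 42729 to 43897 in treated ones, and their part in the results was not tested. Of the markers of other cells, PTPRC (leukocytes), COL3A1 and DCN (fibroblasts) were at 0 in every library, and the sum of the 5 fibroblast markers was at most 107 normalized reads, that of 5 leukocyte markers at most 85.2 and that of 3 endothelial markers at most 28.8. Some of these markers moved with the groups at low levels: depletion at 0 h raised COL1A1 (33.4 and 33.3 to 88.5 and 106 normalized reads), CD68 (18.9 and 21.2 to 38.9 and 49.4), LYZ (2.90 and 3.03 to 15.4 and 8.23) and VWF (6.53 and 6.06 to 28.8 and 21.9), all called. VWF was also called higher after depletion at 16 h, and CD68 with TNF-α in control cells (42.5 and 44.1 normalized reads). The part of these markers in the results was not tested.

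Per kilobase of exon, the listed members were led by anti-apoptotic mRNAs. In control cells at 0 h, BCL2L1 stood at 1475 ± 56.5 normalized reads per kb (SD, n = 2) and MCL1 at 447 ± 31.1. They were followed by BIK at 263 ± 13.0, BAD at 221 ± 39.5 and BID at 162 ± 21.9 normalized reads per kb. BAK1 at 52.7 ± 11.8 and BCL2L11 at 52.5 ± 5.41 normalized reads per kb overlapped, whereas no other neighbours in this order had overlapping libraries. BMF at 16.4 ± 1.63 and BCL2 at 2.80 normalized reads per kb (equal in both libraries to 2 decimals) were far lower, and BCL2A1 had no read. Over all 8 libraries BCL2L1 and MCL1 kept the first and second place, and the ranges of BIK, BID and BAD overlapped.

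**Figure D1:**
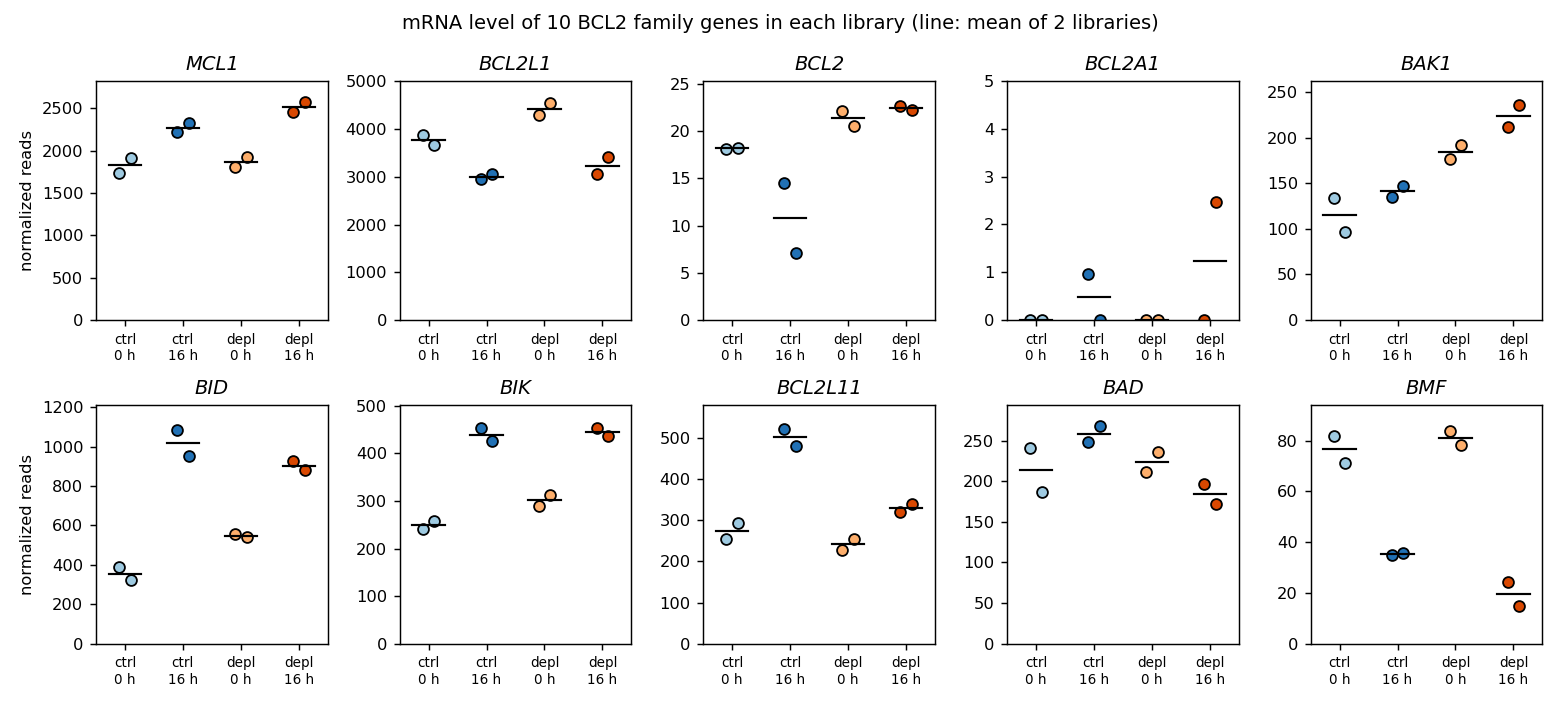
Normalized reads (linear axis from 0, own scale for each gene) of the 10 family members in control (ctrl) and mutp53-depleted (depl) cells without (0 h) and with 16 h of TNF-α. Each dot is 1 library and each line the mean of 2 libraries; BID, BIK and BCL2L11 were higher and BMF lower at 16 h in both lines, with no overlap between the times.

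BID (NM_001196, chr22:18216906-18257261 of hg19, minus strand), the BH3-only member that couples death receptors to mitochondria, moved most among the BH3-only members that rose with TNF-α. Its libraries stood at 389 and 321 normalized reads in untreated control cells, and at 1085 and 952 after TNF-α. In mutp53-depleted cells they stood at 556 and 540.2 normalized reads at 0 h, and at 925 and 879.9 after TNF-α. The libraries of the 4 groups did not overlap, and the mutp53-depleted cells started higher and ended lower than the control cells. TNF-α raised BID 2.87-fold in control cells (log2 fold change 1.52, SE 0.10, limma adjusted p = 1.0e-09) and 1.64-fold in mutp53-depleted cells (0.72, SE 0.10, adjusted p = 1.9e-05). The difference between these responses was itself past the test (-0.80 on the log2 scale, 95% interval -1.09 to -0.52, adjusted p = 0.0022). At 0 h BID was 1.55-fold higher in mutp53-depleted cells (adjusted p = 2.4e-05), and at 16 h the log2 difference was -0.17 (interval -0.37 to 0.03, adjusted p = 0.15).

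BIK (NM_001197, chr22:43506754-43525718, plus strand), a BH3-only protein that acts mainly at the endoplasmic reticulum, stood at 240.2 and 258 normalized reads in untreated control cells and at 453 and 425 after TNF-α. The mutp53-depleted libraries gave 290.2 and 313 at 0 h, against 454 and 437 after TNF-α. All libraries with TNF-α were higher than all libraries without it, and the 16 h libraries of the 2 lines overlapped. TNF-α raised BIK 1.76-fold in control cells (log2 0.82, SE 0.10, limma adjusted p = 4.5e-06) and 1.48-fold in mutp53-depleted cells (0.56, SE 0.10, adjusted p = 0.0003), and the difference between the responses did not pass the test (-0.25, interval -0.55 to 0.04, adjusted p = 0.47). At 0 h depletion raised it 1.21-fold (adjusted p = 0.026). BIK did not pass the test there without control replicate A (log2 0.225) or without depleted replicate B (0.221). It did not pass in edgeR (adjusted p = 0.053 by the quasi-likelihood and 0.058 by the exact test) or in DESeq2 (0.15).

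BCL2L11 (NM_138622, chr2:111878491-111926022, plus strand) encodes BIM, which binds every anti-apoptotic member and can activate the effectors. It stood at 254 and 294 normalized reads in untreated control cells and at 522 and 479 after TNF-α. In mutp53-depleted cells it stood at 227 and 255 at 0 h and at 320.3 and 339 after TNF-α. The lines overlapped at 0 h and were apart at 16 h, with the mutp53-depleted libraries lower. TNF-α raised BCL2L11 1.83-fold in control cells (log2 0.87, SE 0.11, limma adjusted p = 7.3e-06) and 1.37-fold in mutp53-depleted cells (0.45, SE 0.11, adjusted p = 0.0046). The second of these rises no longer passed the test without depleted 0 h replicate A (log2 0.37). At 16 h it was 1.52-fold lower in mutp53-depleted cells (-0.60, SE 0.11, adjusted p = 0.00016), at 0 h the log2 difference was -0.18 (adjusted p = 0.17), and the difference between the 2 did not pass the test (-0.42, interval -0.74 to -0.09, adjusted p = 0.20).

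BMF (NM_001003940, chr15:40380092-40401075, minus strand), a BH3-only protein that is held by the actin motor complexes until cells detach or are stressed, was the member that TNF-α lowered most. It stood at 82.0 and 71.2 normalized reads in untreated control cells and at 34.8 and 35.6 after TNF-α. The values in mutp53-depleted cells were 83.8 and 78.2 at 0 h, against 24.3 and 14.8 after TNF-α. The treated values there rest on 29 and 12 reads. The 0 h libraries of the lines overlapped, whereas at 16 h both mutp53-depleted libraries were below both control libraries. TNF-α lowered BMF 2.14-fold in control cells (log2 -1.10, SE 0.26, limma adjusted p = 0.0038) and 4.10-fold in mutp53-depleted cells (-2.03, SE 0.26, adjusted p = 1.0e-05). Without control 0 h replicate A the control value was -0.997 (adjusted p = 0.043), just under 2-fold. At 16 h it was 1.81-fold lower in mutp53-depleted cells (-0.86, adjusted p = 0.010). This difference did not pass the test without depleted replicate B (-0.52) or in DESeq2 (adjusted p = 0.093). The difference between the TNF-α responses did not pass the test (-0.94, interval -1.71 to -0.17, adjusted p = 0.23).

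BAD (NM_032989, chr11:64037300-64052176, minus strand), a BH3-only protein that growth factor signalling switches off by phosphorylation, stood at 240.2 and 186 normalized reads in untreated control cells and at 248 and 267 after TNF-α. In mutp53-depleted cells it stood at 211 and 236 at 0 h and at 196 and 172 after TNF-α. The 0 h libraries overlapped, and at 16 h those of mutp53-depleted cells were the lower. The TNF-α response did not pass the test in control cells (log2 0.28, limma adjusted p = 0.14) or in mutp53-depleted cells (-0.28, adjusted p = 0.14), nor did the difference between them (-0.56, interval -0.97 to -0.16, adjusted p = 0.15). Without control 0 h replicate A the control response passed it (0.47, adjusted p = 0.042). At 16 h BAD was 1.40-fold lower in mutp53-depleted cells (-0.49, SE 0.14, adjusted p = 0.0060). The median of a window of 51 tested genes on chromosome 11 that holds BAD was also lower (-0.26 on the log2 scale). With that median removed the difference was -0.21 (adjusted p = 0.23). Without depleted 16 h replicate B, BAD did not pass the test either (-0.39).

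Promoter sequence was available from RefSeq (GRCh38.p14) for 8 of the 10 members, as 250 bases before and 50 bases after each transcription start, and was searched on both strands for the NF-κB consensus of 10 letters. Of 15 windows of these members, 1 held a match, the first of 2 windows of BMF. Of all 35116 windows, 5.91% held one, and of all 27305 genes, 7.09%. The 250 bases before the start are shown for BMF, which carries that match and fell with TNF-α, for BID, which rose most and has no match in any of its 5 windows, and for NFKBIA, the inhibitor of NF-κB used as the check of the TNF-α response. Capitals mark the match, and the sequences run 5′ to 3′ on the strand of the gene, at chr15:40108880-40109129 (minus) for BMF, chr22:17774470-17774719 (minus) for BID and chr14:35404750-35404999 (minus) for NFKBIA, all in GRCh38.p14.
BMF: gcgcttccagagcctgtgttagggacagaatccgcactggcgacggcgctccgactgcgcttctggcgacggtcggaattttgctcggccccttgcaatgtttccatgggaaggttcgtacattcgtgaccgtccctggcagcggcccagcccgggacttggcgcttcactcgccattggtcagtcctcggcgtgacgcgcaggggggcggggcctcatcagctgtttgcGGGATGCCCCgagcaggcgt
BID: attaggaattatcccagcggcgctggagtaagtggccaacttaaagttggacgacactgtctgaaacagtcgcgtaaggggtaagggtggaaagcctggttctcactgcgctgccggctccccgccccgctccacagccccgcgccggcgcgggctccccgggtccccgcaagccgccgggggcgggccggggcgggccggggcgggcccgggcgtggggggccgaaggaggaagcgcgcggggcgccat
NFKBIA: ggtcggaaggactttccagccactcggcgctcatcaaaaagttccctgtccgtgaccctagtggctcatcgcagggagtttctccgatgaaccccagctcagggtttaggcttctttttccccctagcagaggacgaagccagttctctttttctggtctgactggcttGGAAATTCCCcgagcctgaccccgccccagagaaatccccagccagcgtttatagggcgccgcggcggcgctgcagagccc
The match of BMF begins 20 bases before the start, on the strand opposite to the gene, and that of NFKBIA 81 bases before it. A match is a likeness of letters in a window, and no binding was measured here.

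Among the anti-apoptotic members, MCL1 rose and BCL2L1 fell with TNF-α in both lines, each by less than 1.5-fold. MCL1 (NM_021960, chr1:150547027-150552214, minus strand), a short-lived protein that restrains BAK, stood at 1735 and 1915 normalized reads in untreated control cells and at 2223 and 2319 after TNF-α. Its mutp53-depleted libraries gave 1811 and 1925 at 0 h, against 2455 and 2569 after TNF-α. TNF-α raised it 1.25-fold in control cells (log2 0.32, SE 0.07, limma adjusted p = 0.0027) and 1.34-fold in mutp53-depleted cells (0.43, SE 0.07, adjusted p = 0.0002). The lines overlapped at 0 h and were apart at 16 h, and the differences between them did not pass the test at 0 h (0.03, interval -0.12 to 0.19) or 16 h (0.15, interval -0.01 to 0.30). ADAMTSL4-AS1 overlaps MCL1 on the same strand, and it had at most 2.01 normalized reads in any library.

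BCL2L1 (NM_138578, chr20:30252261-30310656, minus strand) stood at 3870.3 and 3666 normalized reads in untreated control cells and at 2945 and 3067 after TNF-α. In mutp53-depleted cells it stood at 4291 and 4555 at 0 h and at 3054 and 3407 after TNF-α. All libraries with TNF-α were below all libraries without it. TNF-α lowered BCL2L1 1.25-fold in control cells (log2 -0.33, SE 0.07, limma adjusted p = 0.0022) and 1.37-fold in mutp53-depleted cells (-0.45, SE 0.07, adjusted p = 0.00011). At 0 h depletion raised it 1.17-fold (0.23, adjusted p = 0.012). The median of a window of 51 genes on chromosome 20 that holds BCL2L1 was lower (-0.25). With that median removed the difference was 0.49 (limma adjusted p = 0.00022). BCL2L1 did not pass the test at 0 h without control replicate B (0.19) or depleted replicate B (0.19). The exon counts do not separate the anti-apoptotic and pro-apoptotic splice forms of this gene.

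BCL2 and BCL2A1 were the lowest of the listed members. BCL2 (NM_000633, chr18:60790579-60986613, minus strand), the founding member, stood at 18.1 and 18.2 normalized reads in untreated control cells and at 14.5 and 7.11 after TNF-α. After depletion it stood at 22.1 and 20.6 at 0 h, against 22.6 and 22.2 after TNF-α. At 16 h the mutp53-depleted libraries were the higher, 2.09-fold by limma (log2 1.06, SE 0.38, adjusted p = 0.024), and these values rest on 15 and 5 reads in the control libraries and 27 and 18 in the others. The call was lost without control 16 h replicate B (0.60, adjusted p = 0.23), without either depleted 16 h library (adjusted p = 0.080 without A and 0.077 without B), without a filter on low values (0.055) and with edgeR's quasi-likelihood test (0.0516) or DESeq2 (0.17). Its TNF-α response did not pass the test in control cells (-0.77, interval -1.56 to 0.02, adjusted p = 0.15) or in mutp53-depleted cells (0.07, interval -0.72 to 0.86, adjusted p = 0.92), although the former passed it without control 16 h replicate A (-1.24, adjusted p = 0.041). BCL2A1 (NM_004049, chr15:80253232-80263643, minus strand), an anti-apoptotic gene that NF-κB induces in blood cells, had 1 read in control 16 h replicate A, 2 reads in depleted 16 h replicate B and none elsewhere. It was under the filter of 2.5 normalized reads on average and was not tested, and at these counts, at or under 3 reads per library, a TNF-α response was not detectable.

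BAK1 (NM_001188, chr6:33540323-33548070, minus strand), the only effector among the 10 genes, stood at 134 and 97.0 normalized reads in untreated control cells and at 135 and 147 after TNF-α. The mutp53-depleted libraries held 176 and 192 at 0 h, against 211 and 236 after TNF-α. Every mutp53-depleted library was above every control library. Depletion raised BAK1 1.61-fold at 0 h (log2 0.69, SE 0.16, limma adjusted p = 0.0012) and 1.58-fold at 16 h (0.66, SE 0.16, adjusted p = 0.0017). The TNF-α response did not pass the test in control cells (0.31, adjusted p = 0.17) or in mutp53-depleted cells (0.28, adjusted p = 0.21). Without control 0 h replicate A the control response passed it (0.53, adjusted p = 0.032), and in mutp53-depleted cells it passed with edgeR's exact test (0.34, adjusted p = 0.046). BAK1 has 2 pseudogene copies in GENCODE, neither listed in the deposited table, and how reads matching both were placed is not given in the sources used here.

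How TNF-α changed the listed genes in each line was described over the 9 members tested. The members were chosen with earlier results of these data known, and the part of that choice in the shares below was not tested. In control cells, 4 of 9 passed the test higher (BID, BIK, BCL2L11 and MCL1), against 11.1% of all genes tested, and 2 lower (BMF and BCL2L1), against 15.2%. Past a 2-fold change as well were 2 members, BID and BMF, against 7.24% of all genes, and the median log2 fold change of the 9 members was 0.305 against -0.05 over all genes. In mutp53-depleted cells the members past the test had the same names and directions, 4 higher against 9.8% of all genes and 2 lower against 16.9%. Only BMF, 1 member, also changed 2-fold there, against 6.36% of all genes, and the median was 0.28 against -0.06. The shares and medians over all genes depend on the scaling. With median-ratio scaling 2017 genes passed higher and 1928 lower in control cells, against 1648 and 2243 here. In mutp53-depleted cells it gave 2059 and 2008, against 1451 and 2506. The same 6 members passed in each line. The added pseudocount of 1 normalized read brings the fold changes of weakly expressed members such as BMF and BCL2 nearer to 1. RNA from bulk cultures does not separate fewer cells of a kind from less RNA per cell, so a lower BMF or BCL2L1 value cannot be assigned to either.

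**Figure D2:**
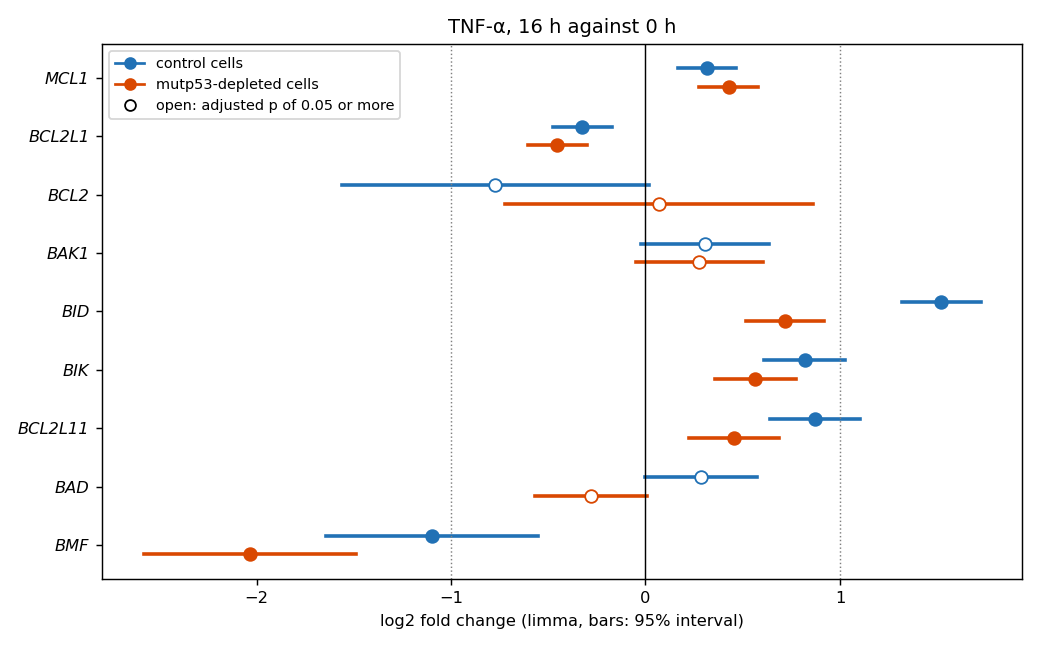
Log2 fold change of the 9 tested members after 16 h of TNF-α against 0 h in control and mutp53-depleted cells, from limma over 8 libraries, with 95% intervals. Filled dots passed an adjusted p of 0.05, and dotted lines mark a 2-fold change; the intervals of the 2 lines do not overlap for BID (1.52 and 0.72).

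The test of whether the response differed between lines was past the threshold for 1 of 9 members, BID, against 2.86% of all genes. The median difference over members was -0.25 on the log2 scale, against -0.03 over all genes. At an unadjusted p under 0.05 there were 4 members (BID, BAD, BCL2L11 and BMF), against 13.5% of all genes, and all 4 differences were negative. Past the adjusted p, a stricter threshold, 327 of the 424 differences over all genes were negative. The adjusted p-values of BAD, BCL2L11 and BMF lay between 0.15 and 0.23.

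Depletion of mutp53 at 0 h left the tested members within 2-fold. Of 9 members, 4 passed the test higher (BID, BAK1, BCL2L1 and BIK), against 27.3% of all genes tested, and none lower, against 25.2%. With limma, 0 members were called at 2-fold, at an unadjusted p under 0.05 also 0, and likewise 0 with edgeR (exact and quasi-likelihood) and DESeq2, against 15.4% of all genes called. The median over members was 0.22 on the log2 scale, against 0.03 over all genes. With TNF-α for 16 h, 2 members passed the test higher in mutp53-depleted cells (BAK1 and BCL2), against 24.9% of all genes, and 3 lower (BCL2L11, BMF and BAD), against 26.5%. The 1 member called at 2-fold was BCL2, against 15.2% of all genes, and none was called by edgeR or DESeq2. Leaving out depleted 0 h replicate B left 2 of the 4 members past the test at 0 h (BID and BAK1), and leaving out depleted 16 h replicate B left 2 of the 5 at 16 h (BAK1 and BCL2L11). The other BH3-only members, BID (-0.17) and BIK (0.02), did not pass the test, and the median over members was 0.02 against -0.01 over all genes.

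**Figure D3:**
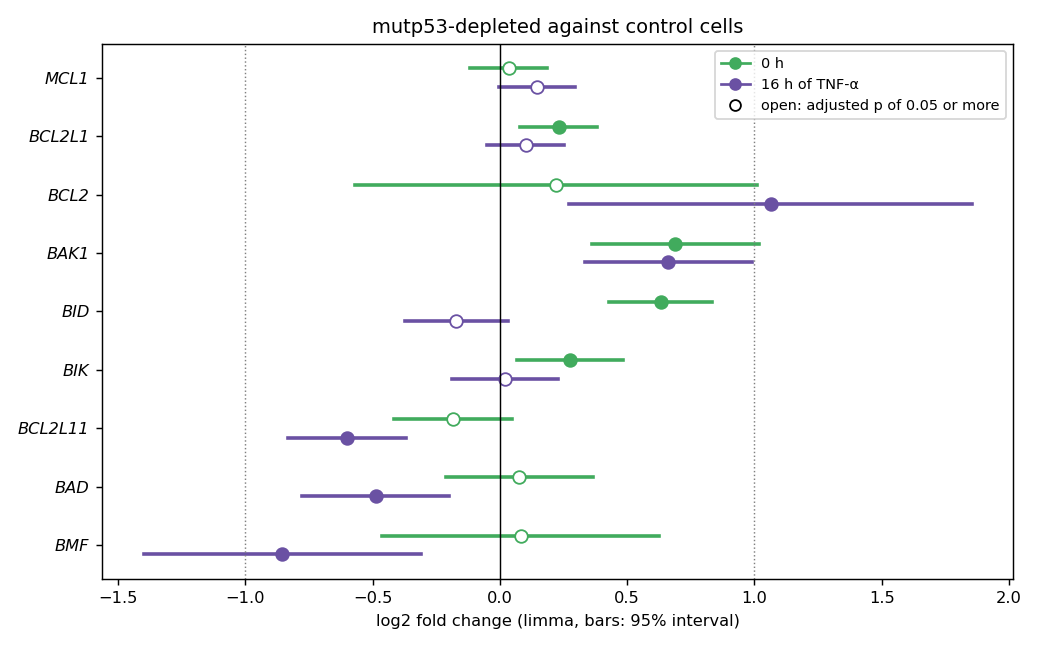
Log2 fold change of the 9 tested members in mutp53-depleted against control cells, untreated or with 16 h of TNF-α, from limma over 8 libraries, with 95% intervals (filled dots: adjusted p under 0.05; dotted lines: 2-fold). BAK1 lies at 0.69 and 0.66, BID at 0.63 and -0.17, and BCL2L11, BAD and BMF lie below 0 at 16 h.

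Summed per kilobase over the listed genes only, the ratio of BH3-only to anti-apoptotic mRNAs moved with TNF-α. The 5 BH3-only genes gave 38.4 and 35.8 normalized reads per kb for every 100 of the 4 anti-apoptotic genes in control cells at 0 h, and 78.7 and 71.2 after TNF-α. In mutp53-depleted cells the ratio was 39.5 and 39.3 at 0 h and 65.1 and 56.3 after TNF-α. Within each line the times did not overlap, and at 16 h both mutp53-depleted libraries were below both control libraries. This sum is of mRNA only and gives each gene the same weight per kilobase, and it was not tested. Other BCL2 family genes were left out of it, among them BCL2L2, PMAIP1 and BBC3. In control cells at 0 h these had means of 399, 309 and 146 normalized reads. How the ratio depends on the choice of genes was not tested. BCL2L1 made up between 75.2% and 79.0% of the anti-apoptotic sum at 0 h and between 66.4% and 67.8% at 16 h, with MCL1 rising from between 20.9% and 24.6% to between 32.0% and 33.4%. BID made up 23.8% and 21.4% of the BH3-only sum in control cells at 0 h, 30.2% and 27.8% without treatment after depletion, and between 34.4% and 36.9% in the 4 libraries with TNF-α. BMF made up at most 2.35% of that sum in any library.

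**Figure D4:**
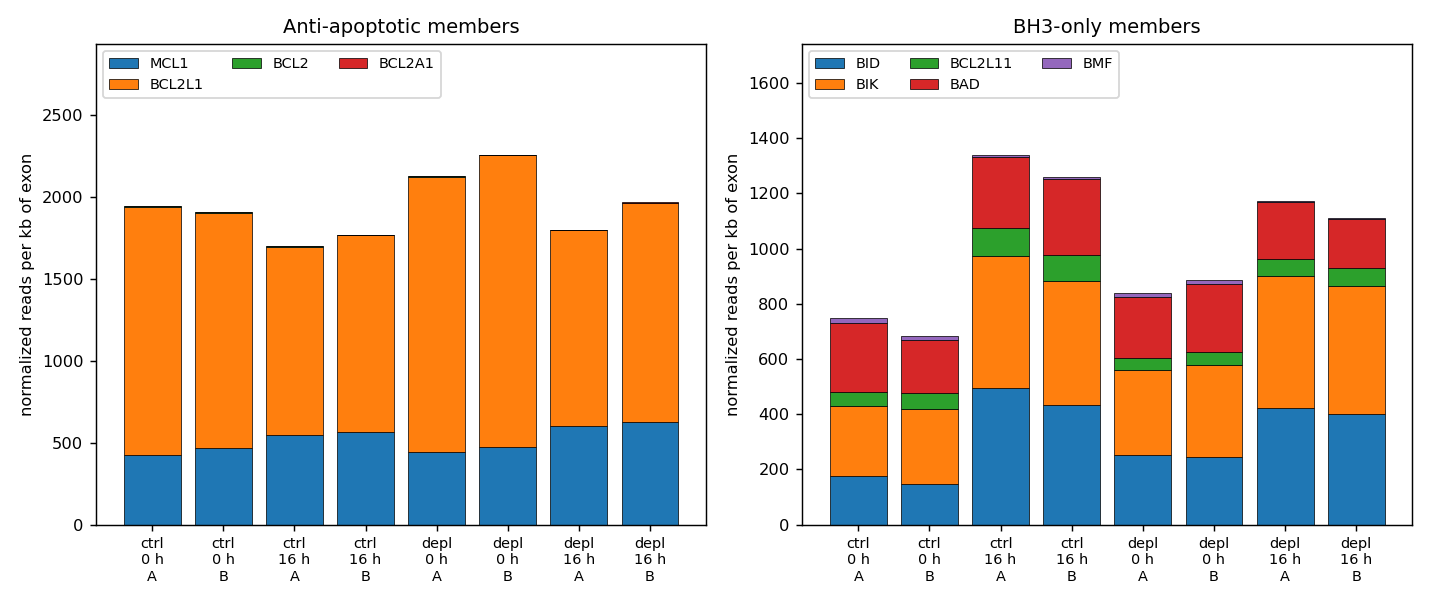
Normalized reads per kilobase of exon in each library (A and B, control and mutp53-depleted cells, untreated or with TNF-α), stacked over the 4 anti-apoptotic genes (left) and the 5 BH3-only genes (right), with axes from 0. The BH3-only stacks lie between 684 and 887 at 0 h and between 1109 and 1339 at 16 h, with BID and BIK holding most of the rise.

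The rest of the pathway was described by lists of related genes. Of 13 other BCL2 family genes, 10 were tested, and depletion at 0 h left 3 higher and 4 lower, against 27.3% and 25.2% of all genes. At 16 h, 3 were higher and 5 lower in mutp53-depleted cells, against 24.9% and 26.5%. The called one was BBC3, which encodes the BH3-only protein PUMA and fell 2.04-fold (log2 -1.03, SE 0.16, limma adjusted p = 3.7e-05), from a mean of 174 to 84.3 normalized reads. BAX, the other effector beside BAK1 and named after its values were seen, was 1.99-fold lower at 0 h (mean 578 against 290.3 normalized reads, adjusted p = 9.6e-08) and 1.96-fold lower at 16 h, opposite in direction to BAK1. With TNF-α, 1 rose and 2 fell in each line, against 11.1% and 15.2% of all genes in control cells and 9.8% and 16.9% in mutp53-depleted cells. The one that rose was PMAIP1, which encodes NOXA, a BH3-only protein that binds MCL1, with 2.36-fold in control cells (log2 1.24, adjusted p = 1.6e-08) and 1.76-fold in mutp53-depleted cells (0.81, adjusted p = 4.6e-06). In none of the 10 did the response differ between the lines past limma's test, and for 2 the unadjusted p was under 0.05 (13.5% of all genes).

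A list of 12 genes held the apoptosome, caspases, inhibitors of apoptosis and released proteins, not all of which act downstream of the mitochondrion. All 12 were tested. TNF-α left 7 higher and 3 lower in control cells (11.1% and 15.2% of all genes). In mutp53-depleted cells 3 were higher and 3 lower (9.8% and 16.9%). BIRC3 and BIRC2, the inhibitors of apoptosis cIAP2 and cIAP1 that act in TNF receptor signalling, were the 2 called in each line. BIRC3 rose from a mean of 12.3 (SD 6.14) to 1270.1 normalized reads in control cells (100.6-fold, log2 6.65). In mutp53-depleted cells it rose from 182 to 2566 (14.0-fold, log2 3.81). BIRC2 rose 3.62-fold in control cells and 2.30-fold in mutp53-depleted cells. The responses differed between the lines for 3 genes, against 2.86% of all genes, namely BIRC3 (-2.84, limma adjusted p = 1.5e-05), CASP9 (-1.37, adjusted p = 0.0026) and BIRC2 (-0.66, adjusted p = 0.0099). CASP9, the initiator caspase of the apoptosome, rose 1.40-fold in control cells and fell 1.85-fold in mutp53-depleted cells. Depletion left 8 of the 12 higher and 1 lower at 0 h (27.3% and 25.2% of all genes), and 5 higher and 2 lower at 16 h (24.9% and 26.5%), with BIRC3 the called gene at both times (14.5-fold and 2.03-fold).

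Of 12 partners and regulators of the member proteins, all tested, depletion left 7 higher and 1 lower at 0 h, against 27.3% and 25.2% of all genes, and 4 higher and 1 lower at 16 h, against 24.9% and 26.5%. The called gene was HUWE1 at 16 h, a ubiquitin ligase that marks MCL1 for degradation, which was 2.09-fold lower in mutp53-depleted cells (log2 -1.06, SE 0.07, limma adjusted p = 9.5e-10), with a mean of 5484 against 11462 normalized reads. With TNF-α, 1 of the 12 rose in control cells and none fell (11.1% and 15.2% of all genes), and in mutp53-depleted cells 1 rose and 1 fell (9.8% and 16.9%). The difference between the responses was past limma's adjusted p for 0 of the 12, and at an unadjusted p under 0.05 for 6 of them, against 13.5% of all genes.

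The genes whose pattern over the 8 libraries was most like that of a called member were taken from 11023 genes whose mean reached 50 normalized reads, by Pearson's r of the log2 values. For BID these were PARP8 (r = 0.991), SMOX (0.987) and BIRC2 (0.986). For BMF they were SUOX (0.995), NEURL1B (0.993) and DNAH3 (0.991), and for BCL2 USP4 (0.978), CGRRF1 (0.956) and ABCB9 (0.955). The libraries fall into 4 groups of 2, so each r describes mainly 4 group means.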

How the data were processed

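Strand-specific (dUTP) poly(A) libraries of SW480 cells were sequenced as 50-base single-end reads. The authors mapped the reads with STAR, counted those on RefSeq exons with HOMER, and deposited a signal value per gene and library, namely reads multiplied by 1 factor per library. The table and its coordinates are headed hg19, but the Methods of the paper give hg38. Whole reads were recovered for at least 99.985% of values in each library (tolerance 0.1). The log2 fold changes, p-values and adjusted p-values that the authors deposited for 4 comparisons were not used. The ChIP-seq, GRO-seq and input samples, 13 of 17, were not analysed here.

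Values were compared as log2(value + 1) in limma 3.58.1 (R 4.3.3, empirical Bayes with a trend) in a model of 4 group means over 8 libraries, for the 14800 genes whose mean reached 2.5. Contrasts tested were depletion at each time, TNF-α in each line, and the difference between the TNF-α responses. Genes passed the test at a Benjamini-Hochberg adjusted p under 0.05 over all genes tested, and were called if they also changed at least 2-fold (the difference between responses at the adjusted p alone). Log2 fold changes are given with their SE from the model. The test was also run on simulated data.

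All 10 members are reported. NFKBIA and TNFAIP3 were named as checks of the TNF-α response (the check of the shRNA target is not reported here), and from each list at most 4 called genes per contrast, those with the smallest p, besides the 3 genes most like each called member; BAX was named after its values were seen. The members and lists were chosen with earlier results of these data known. The markers served to check the labelled cell type. Alternatives were median-ratio scaling, no filter, a minimum mean of 10, pseudocounts of 0.1 and 5, the replicate letter as a block, edgeR 4.0.16 (quasi-likelihood and exact tests with TMM) and DESeq2 1.42.0 on recovered reads, the median of 51 neighbouring genes removed, and leaving out each of the 8 libraries. The window of 51 genes includes the gene itself. Protein sequences were not used here. Tables were written and figures drawn in Python 3.11.15, pandas 2.3.3 and matplotlib 3.10.9.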

Additional observations from a re-analysis of the deposited data

Results flagged for a closer look

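BID differed between the lines in its response to TNF-α: the log2 change in mutp53-depleted cells less that in control cells was -0.80 (SE 0.14, limma adjusted p = 0.0022), by the test of the difference itself. Its level at 0 h was 355 ± 48.0 normalized reads in the control and 548 ± 11.3 in the mutp53-depleted line (SD, n = 2), and at 16 h 1018 ± 94.0 and 902 ± 31.7. It passed this test under every alternative that has such a term. Outlying libraries could not be sought among 2 per group.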

How the results depend on the processing

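Over 18 alternatives, 763 of 801 member values kept their direction and side of the threshold, 18 fell below the threshold, 4 moved past it and 16 changed sign, all of them past the threshold in neither case. Many could change only in their p-value, so the 763 overstate the stability. Leaving out a library outside a contrast, changing the filter or adding the replicate block leaves the log2 value as it was. Removing the neighbour median does so for TNF-α in control cells. The sign changes were MCL1 in depletion at 0 h with the neighbour median removed (-0.0763), BAD there with edgeR's quasi-likelihood (-0.0161) and exact (-0.0138) tests, and BAK1 in the difference between responses with edgeR's quasi-likelihood test (0.0762) and DESeq2 (0.0487). The others came from leaving out 1 library, which gave from -0.0365 to 0.1055 for MCL1, -0.1061 to 0.2586 for BAD and -0.0192 to 0.1821 for BMF in depletion at 0 h, -0.0251 to 0.0667 for BIK in depletion at 16 h and -0.2564 to 0.2013 for BAK1 in the difference between responses. The called member of depletion at 16 h, BCL2, was lost (0 called) without a filter, with a pseudocount of 5 and with edgeR's quasi-likelihood test, edgeR's exact test and DESeq2. Leaving out 1 library gave between 0 and 1 called members there, with 0 without control 16 h replicate B or depleted 16 h replicate B, and BMF in place of BCL2 without depleted 16 h replicate A. For TNF-α in control cells it gave between 1 and 3, with BMF lost without control 0 h replicate A and BCL2 gained without control 16 h replicate A (-1.24, limma adjusted p = 0.041). Without control 0 h replicate A, BAD passed the test for TNF-α in control cells (0.47, adjusted p = 0.042). For depletion at 0 h (0 called), TNF-α after mutp53 depletion (1) and the difference between responses (1) the counts were the same under every alternative. Past the adjusted p alone, depletion left 2 members at 0 h without depleted 0 h replicate B (4 with all libraries), and at 16 h 3 members with DESeq2 and 2 without depleted 16 h replicate B (5 with all libraries). The replicate letters paired the samples weakly at most (correlations of same-letter deviations from -0.08 to 0.22). Over all genes, the difference between responses was past the test with the replicate block for 153 positive and 406 negative values, against 97 and 327 without it. With the block the counts of called members were 0, 1, 2, 1 and 1 for depletion at 0 h and 16 h, TNF-α in the control and the mutp53-depleted line and the difference. Depth limits BCL2, BCL2A1 and, in treated mutp53-depleted cells, BMF, and 2 libraries per group limit every p-value.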
